A study of Mus musculus with 8 samples.

Results

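The tektins and a few other proteins that bind inside the microtubule doublets of cilia and sperm tails were followed as 8 genes, *Tekt1*, *Tekt2*, *Tekt3*, *Tekt4*, *Tekt5*, *Ribc2*, *Enkur* and *Mns1*. They were chosen by gene symbol, with earlier results of these data known, and all 8 were present among the 54532 rows of the expression table. The libraries came from the whole testis RNA of 8 mice, of which 4 were Sync-Spdya fl/fl (control) and 4 were Sync-Spdya cKO. Mice of both groups were C57BL/6J, carried floxed *Spdya* alleles, and received 2 tamoxifen injections, at RA7.5 and RA8.5. Their first wave of spermatogenesis had been synchronized with an inhibitor of retinoic acid synthesis given daily for 7 days from postnatal day 2 and with retinoic acid on postnatal day 9, the day counted as RA0, and the testes were taken at RA11.5, a time aimed at mid to late pachynema. Only the cKO mice carried Ddx4-CreERT2, a tamoxifen-inducible Cre driven by a germ cell promoter, which removes exon 2 of *Spdya*, a meiotic activator of CDK2. The deletion was therefore limited to germ cells, did not reach every pachytene cell in the study's own counts, and was read here in RNA of all testicular cells.

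A sperm tail, like a motile cilium, is built on an axoneme of doublet microtubules, each made of a complete A-tubule and an incomplete B-tubule. Microtubule inner proteins line the inside of both tubules and stabilize them against bending. Tektins form filaments within the A-tubule, RIB43A-type proteins such as RIBC2 and coiled-coil proteins such as MNS1 lie beside them, and ENKUR sits in the B-tubule. In male germ cells, genes of this kind are transcribed during meiosis and after it, before the flagellum is assembled in spermatids.

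Levels are given in FPKM, fragments per kilobase of gene scaled to the size of the library, as the authors deposited them, so that they can be compared between genes. Differences are cKO minus control on the scale of log2(FPKM + 0.1), which understates those of low genes, with their standard error (SE) and the p-value of limma adjusted over all genes tested. The test covered 12141 protein-coding genes, those whose mean FPKM exceeded 1 in each group. A call needed an adjusted p below 0.05 and a log2 fold change beyond 1 in either direction, which 2 genes or 0.0165% of those tested met. The libraries held 13978342 to 19583091 fragments. Control replicate 1, the library with the fewest fragments, stood apart in its mitochondrial share, at 0.464% of fragments against 2.20% to 3.74% in the other 7, so each member is also given without it. *Spdya* itself was at 20.8, 21.0, 23.8 and 19.7 FPKM in control replicates 1 to 4 and at 30.5, 22.2, 26.1 and 17.7 FPKM in cKO replicates 1 to 4. This value counts every exon of the gene, not only the deleted exon 2, and so it does not check the labels.

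The stretches around the starts of 4 of the genes are shown, because *Tekt2*, *Tekt4* and *Ribc2* share an inverted repeat there, of which *Tekt3* has a single arm. The letters GTTGC form 1 arm of an X-box, the element bound by RFX factors, which control many cilia genes. Each window runs 5′ to 3′ from 250 bases before to 50 bases after the transcription start in RefSeq on GRCm38.p6, and capitals mark GTTGC on either strand, which reads GCAAC where it lies on the other strand.
*Tekt2*, chr4:126325639-126325938, minus strand: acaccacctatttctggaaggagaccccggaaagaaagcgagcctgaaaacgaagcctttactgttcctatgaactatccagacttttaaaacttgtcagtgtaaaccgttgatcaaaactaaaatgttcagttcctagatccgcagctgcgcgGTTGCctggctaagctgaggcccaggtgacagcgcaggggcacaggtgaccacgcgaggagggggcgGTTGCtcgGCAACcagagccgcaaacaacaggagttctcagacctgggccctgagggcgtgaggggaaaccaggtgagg
*Tekt3*, chr11:63061409-63061708, plus strand: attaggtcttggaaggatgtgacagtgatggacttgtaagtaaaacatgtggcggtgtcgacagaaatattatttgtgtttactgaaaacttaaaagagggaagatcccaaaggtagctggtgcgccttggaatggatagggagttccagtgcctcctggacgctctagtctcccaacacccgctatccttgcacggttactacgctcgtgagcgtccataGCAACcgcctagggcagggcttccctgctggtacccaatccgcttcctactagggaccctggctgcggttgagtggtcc
*Tekt4*, chr17:25471340-25471639, plus strand: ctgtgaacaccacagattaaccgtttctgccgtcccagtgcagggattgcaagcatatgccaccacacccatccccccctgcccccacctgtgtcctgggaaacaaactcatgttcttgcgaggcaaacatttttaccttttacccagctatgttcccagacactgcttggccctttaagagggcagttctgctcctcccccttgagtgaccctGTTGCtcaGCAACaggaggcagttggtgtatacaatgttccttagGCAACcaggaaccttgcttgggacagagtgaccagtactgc
*Ribc2*, chr15:85131848-85132147, plus strand: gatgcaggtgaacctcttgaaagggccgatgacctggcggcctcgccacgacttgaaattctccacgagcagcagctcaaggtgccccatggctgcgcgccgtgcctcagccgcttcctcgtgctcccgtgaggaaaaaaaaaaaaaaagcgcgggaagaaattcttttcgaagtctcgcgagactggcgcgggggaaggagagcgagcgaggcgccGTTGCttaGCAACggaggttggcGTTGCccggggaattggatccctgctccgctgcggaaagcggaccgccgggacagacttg
The inverted repeat reads GTTGCTCGGCAAC in *Tekt2*, from position -29, GTTGCTCAGCAAC in *Tekt4*, from position -36, and GTTGCTTAGCAAC in *Ribc2*, from position -33, with negative positions counted back from the start. *Tekt3* had its single arm at position -29, on the opposite strand.

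RefSeq gave 12 windows for the 8 genes, since *Tekt1*, *Tekt2* and *Ribc2* have more than 1 start. The windows of *Tekt2* overlap each other, as do those of *Ribc2*, so that 1 site can count in more than 1 window. GTTGC, searched on both strands, was found in 11 of the 12 windows and in all 8 genes, and in 35.2% of the 32851 windows of all genes. The longer GTTGCC, which holds GTTGC within it, was in 8 of the 12 windows and 12.5% of all. The repeat GTTGCNNNGCAAC was in 5 of the 12 windows, of *Tekt2*, *Tekt4* and *Ribc2*, and in 0.225% of all windows. The same repeat with a longer gap, GTTGCNNNNGCAAC, was in 0 of the 12 and 0.174% of all. A GTTGC began between positions -36 and -29 in 7 of the 12 windows and in 1.35% of all windows. The 7 windows belong to 6 of the 8 genes, *Tekt1*, *Tekt2*, *Tekt3*, *Tekt4*, *Ribc2* and *Enkur*. *Mns1* had its matches at -71 and 16, and *Tekt5* had 1 match, at -235. CAGTTG, a core of the MYB element, was in 3 of the 12 windows and 13.7% of all, TGACGTCA, the cyclic AMP response element, in 0 of the 12 and 1.79% of all, and the TATA box core TATAAA in 0 of the 12 and 13.6% of all. These letters and positions were chosen after the members' windows had been seen, and a match describes the sequence without showing that a factor binds there.

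**Figure D1:**
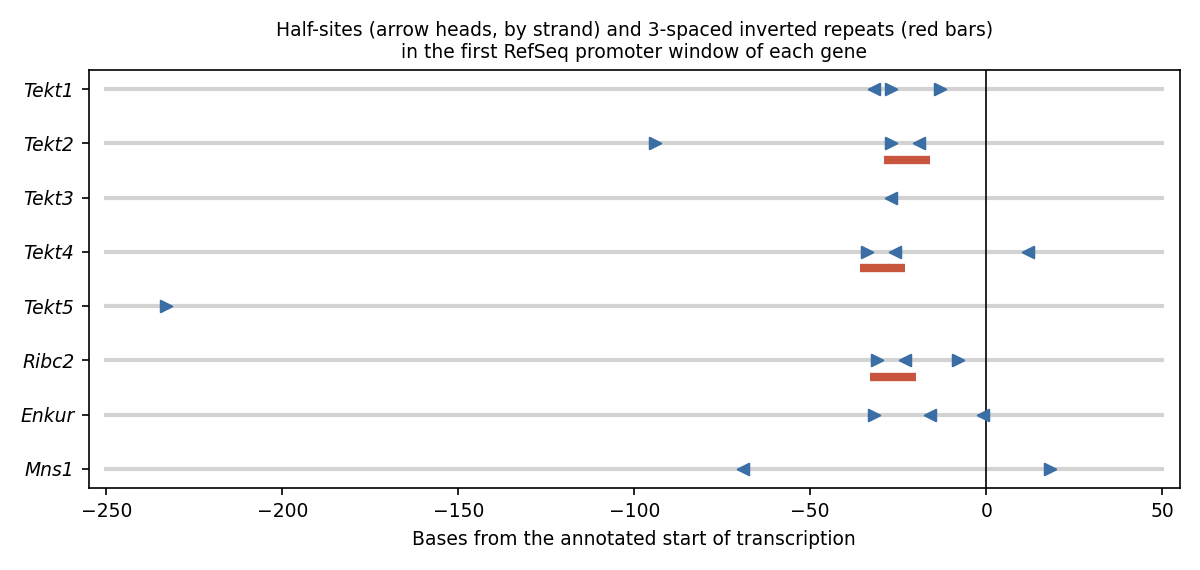
Position of GTTGC half-sites in the first RefSeq promoter window of each of the 8 genes, with bases from the annotated start on the horizontal axis, arrow heads pointing right for the plus orientation and left for the minus, and red bars under inverted repeats. *Tekt2*, *Tekt4* and *Ribc2* carry the bar just before the start, and *Tekt5* has its 1 half-site at -235.

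The 8 genes covered a wide range of levels in the synchronized testis. *Tekt1* was highest, with a mean of 33.6 FPKM over the 8 libraries, and *Mns1* followed at 22.1 FPKM. *Enkur* at 12.9 FPKM and *Ribc2* at 12.1 FPKM came next, then *Tekt2* at 4.48 FPKM, *Tekt5* at 2.83 FPKM, *Tekt4* at 2.19 FPKM and *Tekt3* at 0.551 FPKM. This order held in 8 of 8 libraries for 4 of the 7 neighbouring pairs. *Enkur* was above *Ribc2* in 5 of 8 libraries, so these neighbours could not be ordered, while *Tekt2* was above *Tekt5* in 7 and *Tekt5* above *Tekt4* in 6. Set against the genes tested, *Tekt1* was above 78.1% to 92.5% of them in the separate libraries, *Tekt2* above 15.0% to 41.5%, *Tekt4* above 4.37% to 16.7% and *Tekt3* above 0% to 4.12%.

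**Figure D2:**
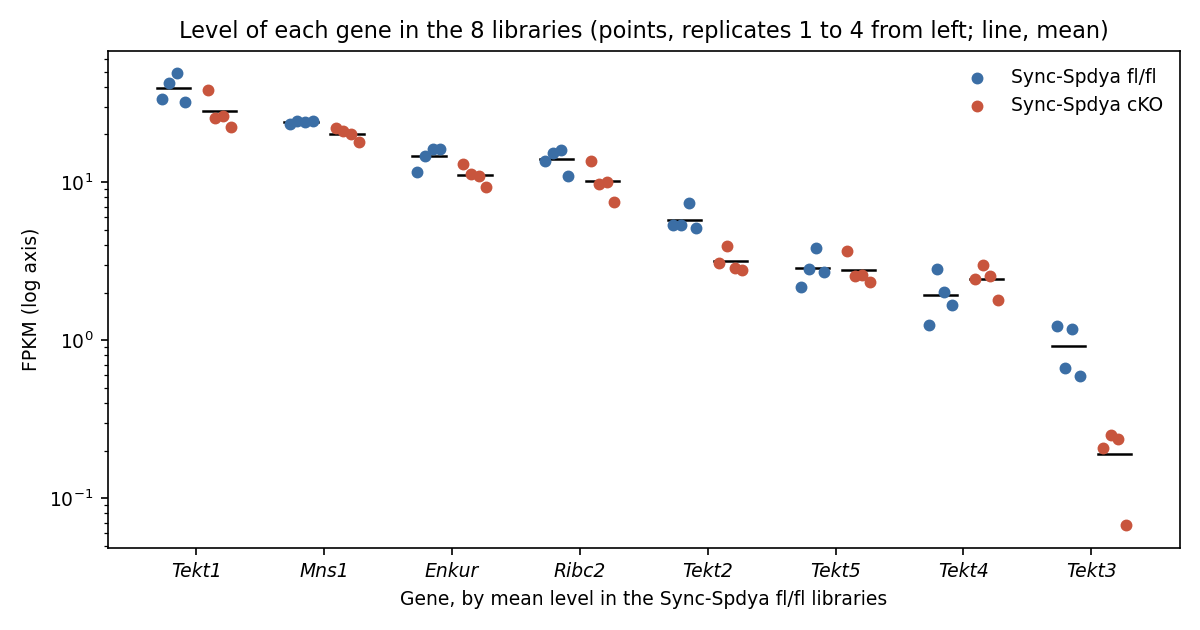
FPKM of each gene on a log axis in the 4 control (blue) and 4 cKO (red) libraries, ordered by control mean, with replicates 1 to 4 from left to right and the group mean as a line. The points of the groups do not overlap for *Mns1*, *Tekt2* and *Tekt3*.

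*Tekt2* and *Tekt3* showed the largest differences among the 8 genes, both lower in cKO without overlap between the groups, which was so for 2.55% of all genes at the lower filter given with *Tekt3*, and neither passed the adjusted threshold. In whole testes, fewer cells of a type and less RNA per cell cannot be told apart. *Tekt2* (ENSMUSG00000028845, chromosome 4, 126322121 to 126325688, minus strand), whose protein is required for a stable sperm tail in mice, was at 5.34, 5.34, 7.34 and 5.14 FPKM in control replicates 1 to 4. In cKO replicates 1 to 4 it was at 3.09, 3.96, 2.84 and 2.76 FPKM. Every cKO library was thus below every control library, and control replicate 3 was the highest of all. The means were 5.79 ± 1.04 FPKM and 3.16 ± 0.548 FPKM (SD, n = 4 each), so that the cKO mean was 45.4% below control. The log2 fold change was -0.85 (SE 0.16, 95% interval -1.20 to -0.50), with a limma adjusted p of 0.127, on 89 to 218 fragments per library. The two-sided exact permutation p was 0.0286, the smallest that 70 assignments of 4 and 4 libraries can give.

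*Tekt3* (ENSMUSG00000042189, chromosome 11, 63061654 to 63094964, plus strand), a tektin linked to sperm motility, was barely transcribed at this stage. It was at 1.22, 0.663, 1.17 and 0.593 FPKM in control replicates 1 to 4 and at 0.207, 0.251, 0.237 and 0.0674 FPKM in cKO replicates 1 to 4. The lowest control library was above the highest cKO library by more than the range of the cKO group. The control mean was 0.912 ± 0.330 FPKM and the cKO mean 0.191 ± 0.0842 FPKM (SD, n = 4 each), 79.1% lower. *Tekt3* did not reach the mean FPKM of 1, so it was tested with the filter lowered to a mean FPKM above 0.1 over all libraries, which kept 15937 genes. There its log2 fold change was -1.80 (SE 0.32, 95% interval -2.51 to -1.09), with a limma adjusted p of 0.110. The gene rested on 98 fragments over the control libraries and 23 over the cKO libraries, and its value depended on the pseudocount, at -2.27 with a pseudocount of 0.01 and -0.67 with 1.

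*Tekt1* (ENSMUSG00000020799, chromosome 11, 72344722 to 72362442, minus strand), the most abundant tektin here, was at 33.6, 42.3, 48.8 and 32.2 FPKM in control replicates 1 to 4 and at 38.4, 25.4, 26.2 and 22.1 FPKM in cKO replicates 1 to 4. The cKO replicate 1 lay within the control range, and the other 3 cKO libraries lay below it. The means were 39.2 ± 7.77 FPKM and 28.1 ± 7.13 FPKM (SD, n = 4 each), with a log2 fold change of -0.49 (SE 0.19, 95% interval -0.91 to -0.07) and a limma adjusted p of 0.399.

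The remaining pair of tektins was near or above control. *Tekt4* (ENSMUSG00000024175, chromosome 17, 25471590 to 25476594, plus strand), also linked to sperm motility, was at 1.25, 2.81, 2.00 and 1.67 FPKM in control replicates 1 to 4 and at 2.42, 2.98, 2.55 and 1.81 FPKM in cKO replicates 1 to 4. The groups overlapped, with control replicate 1 the lowest library. The log2 fold change was 0.36 (SE 0.24, 95% interval -0.18 to 0.90), with a limma adjusted p of 0.648. Without control replicate 1 it was 0.18, and without control replicate 2 it was 0.55 (unadjusted p = 0.0354, limma adjusted p = 0.418). *Tekt5* (ENSMUSG00000039179, chromosome 16, 10357948 to 10395490, minus strand), a tektin mostly restricted to sperm, was at 2.15, 2.81, 3.82 and 2.70 FPKM in control replicates 1 to 4 and at 3.65, 2.53, 2.59 and 2.35 FPKM in cKO replicates 1 to 4. Its groups overlapped widely. Its log2 fold change was -0.04 (SE 0.20, 95% interval -0.48 to 0.40), with a limma adjusted p of 0.961, and its sign turned with the scaling of the libraries, at 0.04 after rescaling to TPM and 0.10 after centring on pachytene spermatocyte markers. It ran from -0.17 to 0.11 with single libraries left out.

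Among the proteins that are not tektins, the 3 genes were all nearer to control than *Tekt2*. *Ribc2* (ENSMUSG00000022431, chromosome 15, 85132078 to 85144570, plus strand), a RIB43A-type protein of the A-tubule, was at 13.5, 15.3, 16.0 and 11.0 FPKM in control replicates 1 to 4 and at 13.7, 9.71, 10.1 and 7.49 FPKM in cKO replicates 1 to 4. As for *Tekt1*, 3 of the 4 cKO libraries were below the control range and cKO replicate 1 was within it. The log2 fold change was -0.46 (SE 0.18, 95% interval -0.87 to -0.05), with a limma adjusted p of 0.413.

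*Enkur* (ENSMUSG00000026679, chromosome 2, 21180731 to 21205365, minus strand), whose protein also binds calmodulin and TRPC channels, was at 11.6, 14.7, 16.1 and 16.3 FPKM in control replicates 1 to 4 and at 13.1, 11.3, 11.0 and 9.28 FPKM in cKO replicates 1 to 4. Control replicate 1 was below cKO replicate 1, and this was the only control library inside the cKO range. The log2 fold change was -0.39 (SE 0.14, 95% interval -0.70 to -0.08), with a limma adjusted p of 0.365. *Mns1* (ENSMUSG00000032221, chromosome 9, 72438011 to 72462025, plus strand), a coiled-coil protein needed for sperm tails and first described in the nuclei of meiotic cells, was at 23.2, 24.3, 24.1 and 24.4 FPKM in control replicates 1 to 4 and at 22.1, 20.9, 20.1 and 17.9 FPKM in cKO replicates 1 to 4. Its groups did not overlap, and the control libraries lay close together, with means of 24.0 ± 0.566 FPKM and 20.2 ± 1.76 FPKM (SD, n = 4 each). The log2 fold change was small, -0.25 (SE 0.09, 95% interval -0.46 to -0.04), with a limma adjusted p of 0.391, on 1629 to 2364 fragments per library.

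**Figure D3:**
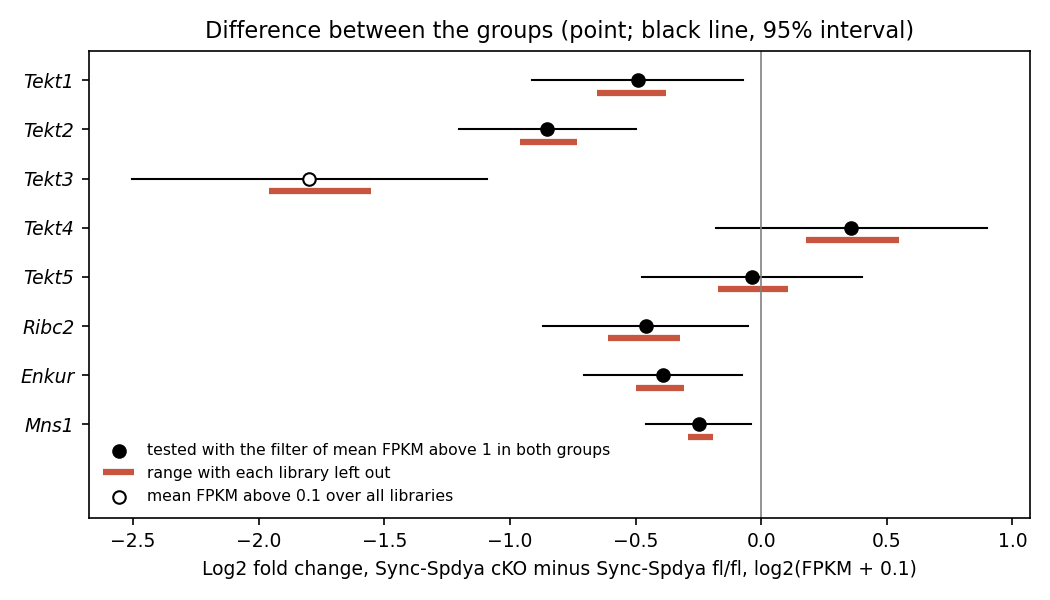
Log2 fold change of each gene, cKO minus control, with its 95% interval as a black line and, as a red bar, the range when each library was left out in turn. *Tekt3*, with the open point, was tested with the lower filter at -1.80, and *Tekt4* at 0.36 and *Tekt5* at -0.04 have intervals that include 0, the sign of *Tekt5* turning under 2 of the scalings tried.

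Counted together, 7 of the 8 genes passed the filter, and 0 of these 7 had a limma adjusted p below 0.05, beside 0.0165% of all genes tested. At an unadjusted p below 0.05, 5 of the 7 were lower in cKO, beside 5.0% of all genes tested, and 0 were higher, beside 5.89%. The groups did not overlap for 2 of the 7, *Tekt2* and *Mns1*, beside 6.24% of all genes in either direction, and both were lower, beside 2.59%. With the lower filter, 0 of the 8 passed the adjusted threshold, beside 0.0125% of the 15937 genes. There 6 of the 8 were lower at an unadjusted p below 0.05, beside 4.86%, and 3 of the 8 were lower without overlap, beside 2.55%. The median log2 fold change of the 7 was -0.39, while that of all genes tested was 0.01, with 48.0% of them below 0. Because the genes were chosen with earlier results of these data known, these counts are a description. The count of 5 lower varied with single libraries left out, where a fixed p is also harder to reach. The median log2 fold change of the 7 stayed between -0.47 and -0.31 there. The count was 3 without control replicate 2, with *Tekt4* then higher, and 2 without control replicate 3. It was 3 without cKO replicate 2, 2 without cKO replicate 3 and 1 without cKO replicate 4. *Tekt2* was the 1 gene left without cKO replicate 4, while the genes without overlap numbered 6 of the 8 without cKO replicate 1. Groups separate more easily with a library left out, and the shares over all genes at these settings are not given here. When limma weighted the libraries by how well they fitted, the adjusted p was 0.0250 for *Tekt2*, 0.0313 for *Tekt1*, 0.0373 for *Enkur* and, with the lower filter, 0.0362 for *Tekt3*. That fit put 454 genes, or 3.74% of all genes tested, past the same adjusted threshold, and 1.69% with the lower filter.

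Without control replicate 1, the log2 fold change was -0.56 for *Tekt1*, -0.88 for *Tekt2*, -1.65 for *Tekt3*, -0.16 for *Tekt5*, -0.47 for *Ribc2*, -0.50 for *Enkur* and -0.26 for *Mns1*. None of these differed in sign from the value over all libraries. *Tekt4*, at 0.18 against 0.36, and *Tekt5*, at -0.16 against -0.04, were the genes that moved by more than 1.5 times.

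The tektins were also compared with each other within each library, as the log2 ratio of 2 genes, a value that the scaling of the library moves only through the pseudocount. The log2 ratio of *Tekt2* to *Tekt4* was 1.58 ± 0.49 in control and 0.37 ± 0.18 in cKO (SD, n = 4 each), a difference of -1.21. That of *Tekt2* to *Tekt5* differed by -0.81, that of *Tekt1* to *Tekt5* by -0.46 and that of *Tekt3* to *Tekt4* by -2.16. *Tekt2* and *Tekt3* were thus lower relative to *Tekt4* and *Tekt5* in every cKO library than in any control library. Of the 10 ratios among the tektins, 7 did not overlap between the groups, each with a two-sided exact permutation p of 0.0286, beside 6.68% of all pairs among the 15937 genes. *Tekt1* to *Tekt2* (difference 0.36, exact p = 0.143), *Tekt1* to *Tekt4* (-0.85, exact p = 0.0571) and *Tekt4* to *Tekt5* (0.40, exact p = 0.2) overlapped. The ratios share genes and were looked at after the levels had been seen, so the 7 are a description and not 7 separate results.

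The libraries differed from each other in the same way for several of the genes. The cKO replicate 4 was the lowest library for 6 of the 8 genes, and control replicate 3 was the highest for 4 of them. With the group means removed, the Pearson r of a gene with the mean of the other 7 over the 8 libraries ranged from 0.40 for *Tekt3* to 0.85 for *Ribc2*. The r with the mean of 10 pachytene spermatocyte markers ranged from 0.11 for *Tekt4* to 0.90 for *Ribc2*. These points share the depth, scaling and cell makeup of each library.

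**Figure D4:**
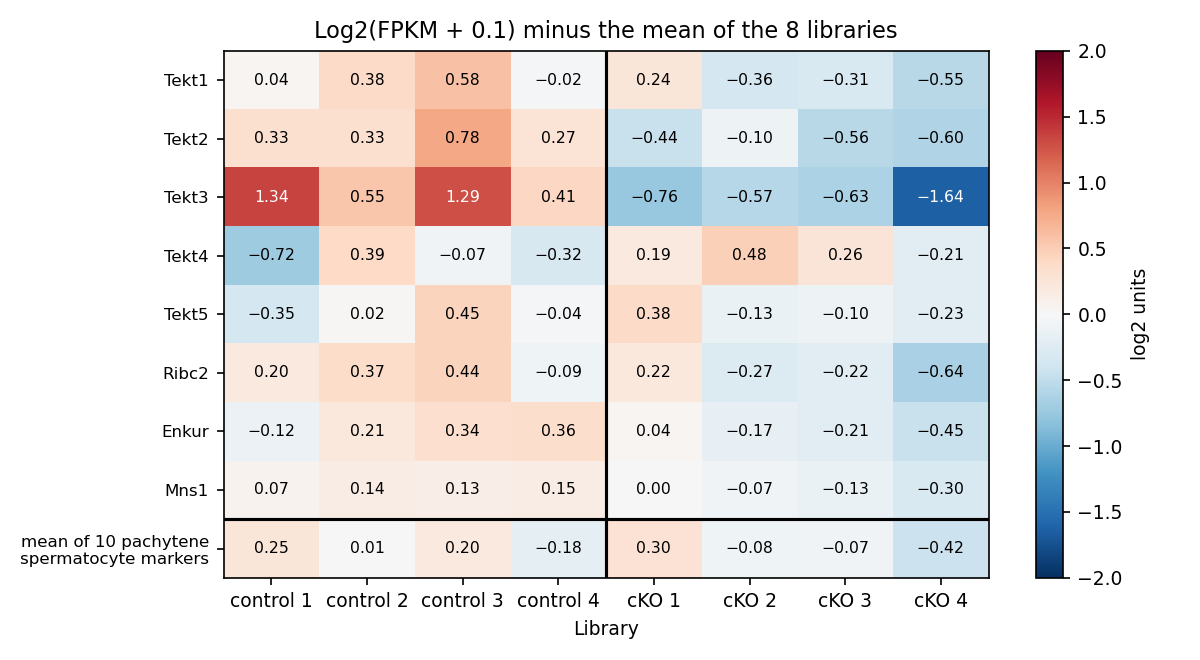
Log2(FPKM + 0.1) of each gene in each library minus the mean of the 8 libraries, red above and blue below, with the mean of 10 pachytene spermatocyte markers in the bottom row. The column of cKO replicate 4 is below the mean for all 8 genes and for the markers, at -0.42.

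Markers of the cell types of the testis were read beside these values. The mean log2(FPKM + 0.1) of the 10 pachytene spermatocyte markers was 6.05 ± 0.20 in control and 5.91 ± 0.29 in cKO (SD, n = 4 each, two-sided exact permutation p = 0.543). Their summed level ran from 1358 to 1991 FPKM in control and from 1087 to 1719 FPKM in cKO. Of the 9 of them that were tested, 2 were lower in cKO at an unadjusted p below 0.05 (limma) and 0 higher, beside 5.0% and 5.89% of all genes. In the paper's single-cell data, from pooled mice at a slightly later time, spermatocytes were a lower percentage of cells in cKO testes. The groups overlapped for each of the 8 marker lists. The largest differences, each higher in cKO, were in 6 Leydig cell markers (0.77 ± 0.43 and 1.43 ± 0.29, exact permutation p = 0.0571, n = 4 each), in 4 macrophage markers (1.38 ± 0.35 and 1.93 ± 0.21, exact permutation p = 0.0571) and in 5 peritubular and endothelial markers (2.44 ± 0.36 and 2.92 ± 0.18, exact permutation p = 0.114). The smallest adjusted p over the 8 lists was 0.229. Their summed levels were 16.5 to 37.9 and 28.6 to 46.7 FPKM for Leydig cells, 9.65 to 19.6 and 18.9 to 25.7 FPKM for macrophages and 51.0 to 83.0 and 81.1 to 113 FPKM for peritubular and endothelial cells, in control and cKO. Of the 3 Leydig cell markers tested, 2 were higher in cKO at an unadjusted p below 0.05 (limma). So were 2 of the 4 macrophage, 3 of the 5 peritubular and endothelial and 0 of the 8 Sertoli cell markers, beside 5.89% of all genes. In these lists 0 were lower, beside 5.0%. The part of the markers in the differences of the 8 genes was not tested.

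The 8 spermatid markers, those of the cells that build the sperm tail, were near the detection floor in both groups, with a mean log2 level of -1.60 ± 0.23 in control and -1.70 ± 0.29 in cKO (exact permutation p = 0.629, n = 4 each). Of them only *Spaca1*, an acrosomal membrane gene, had a mean above 1 FPKM, at 4.61. The 7 markers of multiciliated cells, which also use these genes, were at -0.76 ± 0.12 and -0.72 ± 0.15 (exact permutation p = 0.629), and *Sntn* was at 0 in every library. Of these 7, *Foxj1* is also counted among the transcription factors that follow. Spermatogonia markers were at 4.16 ± 0.09 and 4.07 ± 0.06 (exact permutation p = 0.171) and Sertoli cell markers at 6.01 ± 0.27 and 6.15 ± 0.12 (exact permutation p = 0.4, n = 4 each).

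When each library was centred on the pachytene spermatocyte markers, the median log2 fold change of all genes tested moved by 0.139, to 0.149. The markers did not all move alike, so the centring is a change of scale and not a correction for cell number. On that scale *Tekt2* was at -0.71 (unadjusted p = 0.00725, limma) and, with the lower filter, *Tekt3* at -1.66 (unadjusted p = 0.000121, limma), both again without overlap. *Ribc2* was at -0.32, *Tekt1* at -0.35, *Enkur* at -0.25, *Mns1* at -0.11, *Tekt4* at 0.50 and *Tekt5* at 0.10, each with an unadjusted p above 0.05. *Ribc2* no longer overlapped between the groups on that scale, while *Mns1* did, as *Mns1* also did after rescaling to TPM. Of the 7 genes tested, 1 was then lower at an unadjusted p below 0.05, and 0 at an adjusted p. The share of all genes at that unadjusted p on this scale is not given here.

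Some members share their place with other genes, and whether the authors' counting used strand is not given in the sources used here. Within *Tekt2* lies the antisense gene *Gm12945*, at 0 to 0.327 FPKM in the 8 libraries, a low level beside the 2.76 to 7.34 FPKM of *Tekt2*. The 3′ part of *Mns1* overlaps *Tex9* on the opposite strand, which was at 9.52 ± 1.31 FPKM in control and 7.53 ± 0.849 FPKM in cKO (SD, n = 4 each) with a log2 fold change of -0.33, and *Gm36948*, within *Mns1* on the same strand, was at 3.02 ± 0.738 FPKM and 3.34 ± 0.825 FPKM with a log2 fold change of 0.14. How fragments were divided between these genes and *Mns1* is not known, so its value is uncertain. *Smc1b*, a meiotic cohesin gene whose start faces that of *Ribc2*, was at 53.5 ± 4.70 FPKM and 54.5 ± 11.1 FPKM, and the log2 fold change there was 0.01 against -0.46 for *Ribc2*.

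Beyond the 8 genes, a list of 37 other microtubule inner proteins was read, of which 28 were matched in the table and 18 passed the filter. The list was drawn up from the known composition of the doublets, but with earlier results of these data known, so its counts are a description. At an unadjusted p below 0.05, 9 of the 18 were lower in cKO and 1 was higher, beside 5.0% and 5.89% of all genes, and 0 had a limma adjusted p below 0.05. The groups did not overlap for 5 of the 18, all lower, beside 2.59% of all genes. Their median log2 fold change was -0.39, like that of the 7 members at this filter, against 0.01 over all genes. Without a filter on FPKM the median of the list was -0.21, against -0.43 for the 8 members, so the likeness holds only for the filter used.

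The 3 with the smallest p were all genes of the same kind of structure. *Spaca9*, a B-tubule protein, was at 6.51 ± 0.974 FPKM in control and 3.75 ± 0.510 FPKM in cKO (SD, n = 4 each), with a log2 fold change of -0.78 (SE 0.14, limma adjusted p = 0.127). *Cfap45* was at 5.53 ± 1.02 FPKM and 3.18 ± 0.665 FPKM, with a log2 fold change of -0.78 (limma adjusted p = 0.178). *Cfap52*, another B-tubule protein, was at 15.7 ± 2.82 FPKM and 8.81 ± 2.37 FPKM, with a log2 fold change of -0.85 (limma adjusted p = 0.178). For each of these 3 genes every cKO library was below every control library. *Cfap161*, which did not pass the filter, was at 1.75 ± 0.384 FPKM in control and 0.702 ± 0.284 FPKM in cKO, also without overlap. With the lower filter its log2 fold change was -1.25 (unadjusted p = 0.000761, limma adjusted p = 0.147). That unadjusted p was smaller than those of *Cfap45* and *Cfap52*. The 1 that was higher was *Ribc1*, the X-linked relative of *Ribc2*, at 2.71 ± 0.494 FPKM and 4.63 ± 1.33 FPKM with a log2 fold change of 0.72 (limma adjusted p = 0.287), the opposite sign to *Ribc2*. The lowest level in the list was that of *Tex43*, at 0.139 FPKM or less in all libraries.

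**Figure D5:**
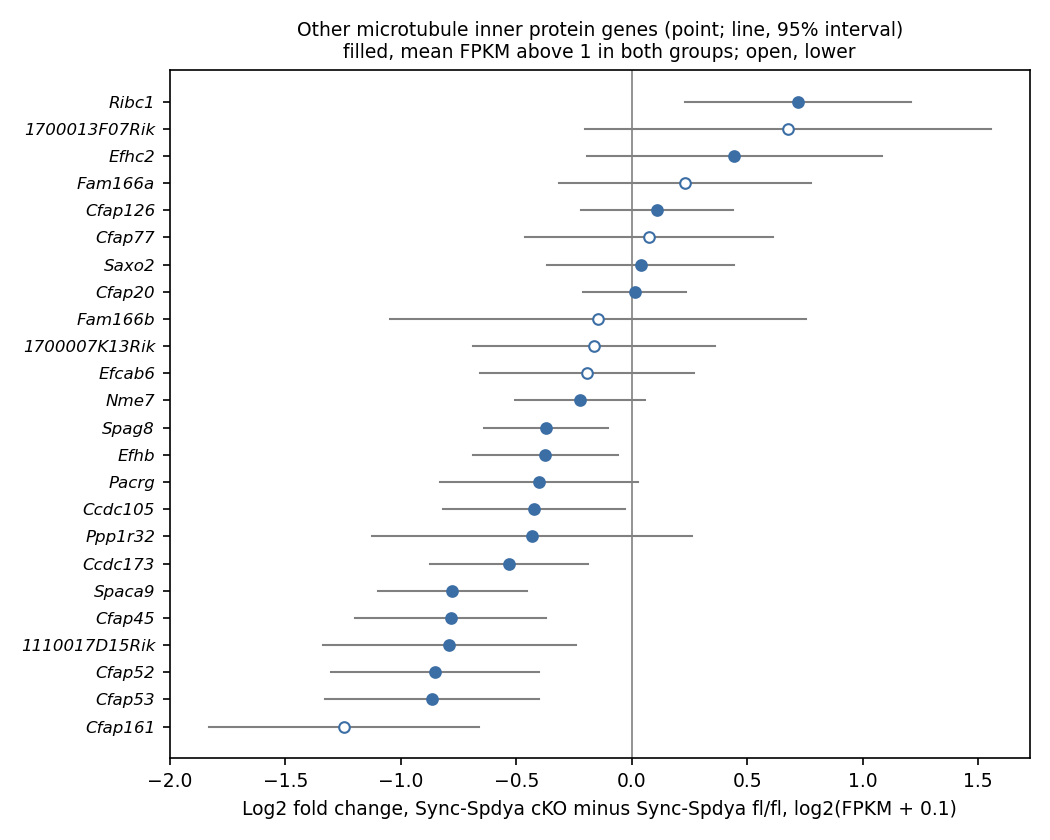
Log2 fold change, cKO minus control, of other microtubule inner protein genes with a mean FPKM above 0.1, 1 gene left out, with 95% intervals as lines, filled points above and open points below the filter of mean FPKM above 1 in both groups. *Ribc1* is at the top at 0.72, and *Cfap52*, *Cfap53* and *Cfap161* are at the bottom, at -0.85, -0.87 and -1.25.

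Of 9 transcription factors known for cilia and flagella genes, 0 differed at an unadjusted p below 0.05, beside 10.9% of all genes in either direction, and their median log2 fold change was -0.13. *Mybl1*, which drives pachytene transcription, was at 17.0 ± 1.75 FPKM in control and 14.0 ± 2.59 FPKM in cKO (SD, n = 4 each), with a log2 fold change of -0.29 (limma adjusted p = 0.514). *Tcfl5*, the highest of the 9, was at 86.9 ± 44.1 FPKM and 58.7 ± 10.7 FPKM, with a log2 fold change of -0.45 (limma adjusted p = 0.636) that was -0.15 without control replicate 1, which alone was at 150 FPKM. *Foxj1*, the master regulator of motile cilia and the lowest of the 9, was at 1.08 ± 0.212 FPKM and 1.42 ± 0.371 FPKM (limma adjusted p = 0.642). The interval of the log2 fold change was -0.60 to 0.03 for *Mybl1*, -1.12 to 0.21 for *Tcfl5* and -0.17 to 0.85 for *Foxj1*.

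The 5 genes whose course over the 8 libraries, with group means removed, was most like the mean of the 8 members among 12134 genes were *Znrd1as* (r = 0.974), *9430015G10Rik* (r = 0.972), *Spo11* (r = 0.969), *Sprtn* (r = 0.965) and *Znrd1* (r = 0.963). *Spo11*, which makes the breaks of meiotic recombination, was at 20.5 FPKM in control and 21.9 FPKM in cKO. These values rest on 8 libraries and the top of a large number of genes, and share each library's depth and cell makeup.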

How the data were processed

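RNA was measured in whole synchronized testes, with 1 library per mouse. By the study's methods, paired-end sequencing and the FPKM values came from a sequencing company; the aligner, the counting tool and the use of strand are not given in the sources used here. The build is GRCm38 in the submitters' processing notes. The authors deposited FPKM per gene with its length in 1 table of 54532 genes and in a file per library, and all rows were equal between them. FPKM times length gave whole fragments in 99.996% of values above 0 (tolerance 0.02), and 1 fragment per kilobase is worth 0.0516 to 0.0763 FPKM. The FPKM carry the authors' own scaling of the libraries.

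Groups were compared with limma 3.58.1 in R 4.3.3 (lmFit, eBayes with trend) on log2(FPKM + 0.1), 4 against 4 libraries with no covariates, and with Benjamini-Hochberg adjustment. Single values were compared by two-sided exact permutation over 70 assignments. The fit was also run on simulated fragments, whose settings and outcome are not given here. The mice were separate animals, and the least different pair of replicates had a chi-square of 4.61 per gene, where sampling noise alone gives about 1. Pairs with control replicate 1 were at 82.8 to 109, and all other pairs at 4.61 to 29.7, so that library stood apart over many genes. The members and gene lists were chosen with earlier results of these data known. Named genes were all 8 members; of each other list, any at an adjusted p below 0.05, otherwise the 3 with the smallest p, and the highest and lowest level; and the 5 genes most like the members' mean. Neighbouring genes, *Ribc1*, *Cfap53*, *Cfap161*, *Spaca1* and *Sntn* were named after their values were seen. Of the 37 list genes, 9 symbols were not matched and are not analysed here. 1 gene that the rule names is not reported here. Alternatives were other pseudocounts, filters, scalings, library weights, voom on the recovered fragments, the replicate block and each library left out. Sequences came from RefSeq on GRCm38.p6. Tables and figures were made with Python 3.11.15, pandas 2.3.3 and matplotlib 3.10.9.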

Additional observations from a re-analysis of the deposited data

Results flagged for a closer look

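*Tekt2* in control replicate 3 was far from the other 3 control libraries, at 7.34 FPKM against 5.14 to 5.34 FPKM. The gap to the nearest library was 0.908 of the whole range of the group, above Dixon's critical value of 0.829 for 4 samples. Of the 16 groups of 4 values looked at, for the 8 genes in both genotypes, 1 exceeded it, while about 0.8 are to be met by chance. Without this library the log2 fold change of *Tekt2* was -0.73, and the groups still did not overlap.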

How the results depend on the processing

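Over 20 alternatives (19 where a stricter filter removed the gene) the log2 fold changes of *Tekt1*, *Tekt2*, *Tekt3*, *Ribc2*, *Enkur* and *Mns1* stayed below 0 and that of *Tekt4* above it. *Tekt5*, at -0.04, turned to 0.040 after rescaling to TPM, 0.10 after pachytene marker centring, 0.11 without control replicate 3 and 0.035 without cKO replicate 4, and ranged from -0.17 to 0.11 over the libraries left out. Members at an unadjusted p below 0.05 numbered 2 with TPM and 1 with pachytene marker centring against 5, and 1 to 5 with single libraries left out. Members without overlap numbered 3 to 6 with single libraries left out, where groups separate more easily. The shares over all genes beside these member counts are not given here. With library weights, 3 members passed the adjusted threshold, as did 454 genes over all genes, of which 57 also passed the fold threshold and were called. The genes called, 2 in the main test, were 0 without a filter, 0 with a mean FPKM above 5, 1 with TPM, 1 with median centring, 0 with pachytene marker centring and 0 to 3 with single libraries left out. The other microtubule inner proteins at an unadjusted p below 0.05 numbered 3 with a mean FPKM above 5 and 6 with pachytene marker centring against 10, and their median was -0.21 without a filter against -0.39. Same-numbered libraries correlated at 0.0757 to 0.406 in their deviations, below 0.1 in 1 of the 4 pairs. Of the 4 numbers, 3 matched best with themselves, so a factor shared by number may be present. The labels do not say what the number stands for, and the main fit was left without a block for that reason. With the replicate block 0 genes were called, 0 members passed the adjusted threshold and 5 did so unadjusted. Depth limits *Tekt3* most, with 2 to 32 fragments per library. The cause of these shifts was not tested.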
